A study of Mus musculus with 12 samples.

Results

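The genes described are 8 genes of the B cell lineage, Ms4a1, Cd79a, Cd79b, Pax5, Blk, Cr2, Fcer2a and Cd22, measured in mouse lung tissue by total RNA sequencing. They were picked out by symbol, and all 8 are listed in each of the 12 libraries, among 33924 genes in one set of 6 libraries and 22609 genes in the other. The mice were of the B6 background, 6 to 8 weeks old, and lung RNA was taken 14 to 16 h after treatment with house dust mite extract (D.f., Dermatophagoides farinae) or phosphate-buffered saline (PBS). In the first set (RNase III set) the mice were wild type and received D.f. extract with RNase III, an enzyme that cuts double-stranded RNA (n = 2), D.f. extract alone (n = 2) or PBS (n = 2). In the second set (knockout set) TLR3MAVS double knockout mice (DKO) and wild-type mice (WT) received D.f. extract (n = 2 per genotype) or PBS (n = 1 per genotype). Tlr3 is the endosomal sensor of double-stranded RNA and Mavs the adaptor of the cytosolic RNA sensors. The labels give neither the dose and route of the extract nor how the knockout alleles were made. No group received RNase III with PBS, so the cutting of RNA in the extract cannot be told apart from other effects of the enzyme. Whether replicates are separate animals is not given in the labels. The p-values here therefore reflect only how far these libraries differed among themselves, which may be technical spread.

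B lymphocytes recognise antigen through the B cell receptor, a membrane immunoglobulin that signals through the paired chains Cd79a and Cd79b. Ms4a1 encodes the surface protein CD20, Cd22 a sialic-acid-binding inhibitory co-receptor, and Blk a kinase of the Src family that acts downstream of the receptor. Pax5 is the transcription factor that holds cells to the B lineage until they become plasma cells. Cr2 encodes complement receptor 2 (CD21) and Fcer2a the low-affinity IgE receptor CD23. Both are found on mature B cells and on follicular dendritic cells, and CD23 on B cells is known to be raised by interleukin 4. In lung, B cells are found in the circulation of the tissue and, after lasting stimulation, in lymphoid aggregates. In bulk tissue a lower level can come from fewer B cells, from less RNA per B cell or from more RNA of other cells. These cannot be told apart.

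The 8 genes lie on 7 chromosomes (mouse build NCBIM37, which is mm9). Cd79a is on chromosome 7 (25682400 to 25687216, plus strand) and Cd22 on the same chromosome (31650421 to 31665361, minus strand). The others are on minus strands, Cd79b on chromosome 11 (106172655 to 106176076), Ms4a1 on chromosome 19 (11324654 to 11340669), Pax5 on chromosome 4 (44544017 to 44724318), Blk on chromosome 14 (63991674 to 64036024), Cr2 on chromosome 1 (196963005 to 197002909) and Fcer2a on chromosome 8 (3681737 to 3694174). Ms4a1 lies within the span of the plus-strand lincRNA 4930526L06Rik, and exon sequence of Pax5 overlaps the span of the plus-strand transcript Gm12462. Whether it overlaps the exons of these transcripts was not checked. The strand setting of the counting is not given in the sources used here, so reads from any shared exon sequence cannot be told apart.

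Promoter sequences, 250 bases before to 50 bases after a gene's start, were found in the RefSeq table (GRCm38.p6) for 5 of the 8 genes, with 7 starts in all, of which 3 belong to Fcer2a. Each of the 7 matched the NCBIM37 genome exactly and once. Those of Cd79a and Cd22 are shown because these genes moved with most of the others in the values below. Fcer2a is shown because it departed from them. Of its 3 starts the middle one is printed, the only one with a match to a motif marked here. Cd79a lies at chr7:25682266-25682565 on the plus strand, Cd22 at chr7:31663998-31664297 on the minus strand and Fcer2a at chr8:3690812-3691111 on the minus strand. Capitals mark matches to the palindrome bound by the B cell factor Ebf1 (TCCC, any 2 bases, GGGA) or to the spacing known for Stat6, the factor activated by interleukin 4 (TTC, any 4 bases, GAA).
Cd79a: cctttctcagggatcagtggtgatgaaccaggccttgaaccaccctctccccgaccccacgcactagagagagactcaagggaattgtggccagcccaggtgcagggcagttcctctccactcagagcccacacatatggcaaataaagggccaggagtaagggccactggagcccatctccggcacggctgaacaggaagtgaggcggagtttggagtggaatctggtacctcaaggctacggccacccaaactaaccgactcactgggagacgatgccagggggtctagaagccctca
Cd22: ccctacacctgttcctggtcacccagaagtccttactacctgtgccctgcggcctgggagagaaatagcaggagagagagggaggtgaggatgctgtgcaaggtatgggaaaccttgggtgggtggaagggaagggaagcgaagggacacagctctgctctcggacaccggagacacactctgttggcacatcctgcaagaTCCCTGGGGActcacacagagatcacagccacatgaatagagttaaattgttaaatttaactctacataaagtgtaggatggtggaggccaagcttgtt
Fcer2a: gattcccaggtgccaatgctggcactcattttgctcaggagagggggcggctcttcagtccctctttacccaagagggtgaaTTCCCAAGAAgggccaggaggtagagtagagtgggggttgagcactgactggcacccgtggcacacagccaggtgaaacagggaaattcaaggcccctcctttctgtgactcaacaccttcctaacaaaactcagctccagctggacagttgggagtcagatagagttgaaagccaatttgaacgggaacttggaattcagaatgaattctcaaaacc

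Both strands were searched, and a palindrome at one place was counted once. The Ebf1 palindrome was present in the promoter of Cd22 at positions -49 to -40 from the start and in none of the other 6, against 0.904% of 32851 promoters of that length. The Stat6-type spacing was present at positions -168 to -159 of the Fcer2a promoter shown and in none of the other 6, including the other 2 starts of Fcer2a, against 6.95% of all promoters. The octamer ATTTGCAT, bound by Oct factors in B cell genes, was in none of the 7 windows and in 1.74% of all promoters. Of 4 shorter or looser motifs also searched, the Stat spacing TTCNNNGAA was in none of the 7 (8.3% of all promoters), the PU.1 purine box GAGGAA in 1 (28.3%), the NF-kB-type motif GGG, any 5 bases, CC in 4 (50.8%) and the E box CANNTG in 7 (72.3%). Matches describe letters only. Gene-level counts do not tell which start of Fcer2a the reads came from.

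Libraries of the RNase III set held 17754518 to 25714074 reads assigned to genes, those of the knockout set 15687699 to 20945618. Levels are in CPM, reads per library total scaled for composition, and a count of 0 would allow up to 3 reads, or 0.117 to 0.191 CPM, as counting error only. None of the 8 genes was near that limit. Their lowest counts were 36 reads, for Cr2 in DKO D.f. replicate 6, and 41 reads, for Pax5 in the same library. Per kilobase of exon in the RNase III set, the order of the 8 levels differed between groups. Fcer2a averaged 6.92 ± 0.93 CPM per kb with D.f. and RNase III, 12.4 ± 2.2 with D.f. and 4.83 ± 0.25 with PBS (SD, n = 2 each). Cd79b averaged 5.36 ± 0.59, 10.01 ± 1.80 and 9.58 ± 0.71 CPM per kb in the same groups, so that Fcer2a was above Cd79b in the 4 libraries with extract and below it in both PBS libraries. Cd22, Ms4a1 and Cd79a averaged 4.08, 3.46 and 3.30 CPM per kb with D.f. and RNase III, 6.74, 6.70 and 6.38 with D.f., and 5.92, 4.86 and 5.17 with PBS, and their order changed between libraries. Pax5 averaged 1.97, 3.81 and 2.846 CPM per kb in these groups and Blk 1.74, 3.34 and 2.45, and these also changed places between libraries. Cr2 averaged 0.608, 1.35 and 1.35 CPM per kb and was the lowest of the 8 in all 6 libraries. The knocked-out genes followed their labels. Tlr3 had 10.1 to 14.8 CPM in the 3 DKO libraries and 42.4 to 156 CPM in the 3 WT libraries of the knockout set, and Mavs had 2.35 to 3.09 CPM and 32.2 to 36.4 CPM in these same libraries. Other tissue also differed between libraries. Summed over 9 cardiac muscle markers, CPM ran from 187 to 1414 between the PBS libraries of the RNase III set, and summed over 7 adipose markers from 7.19 to 131. The 10 markers of lung structural cells, among them Sftpc of alveolar type 2 cells, were present in all 12 libraries.

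**Figure D1:**
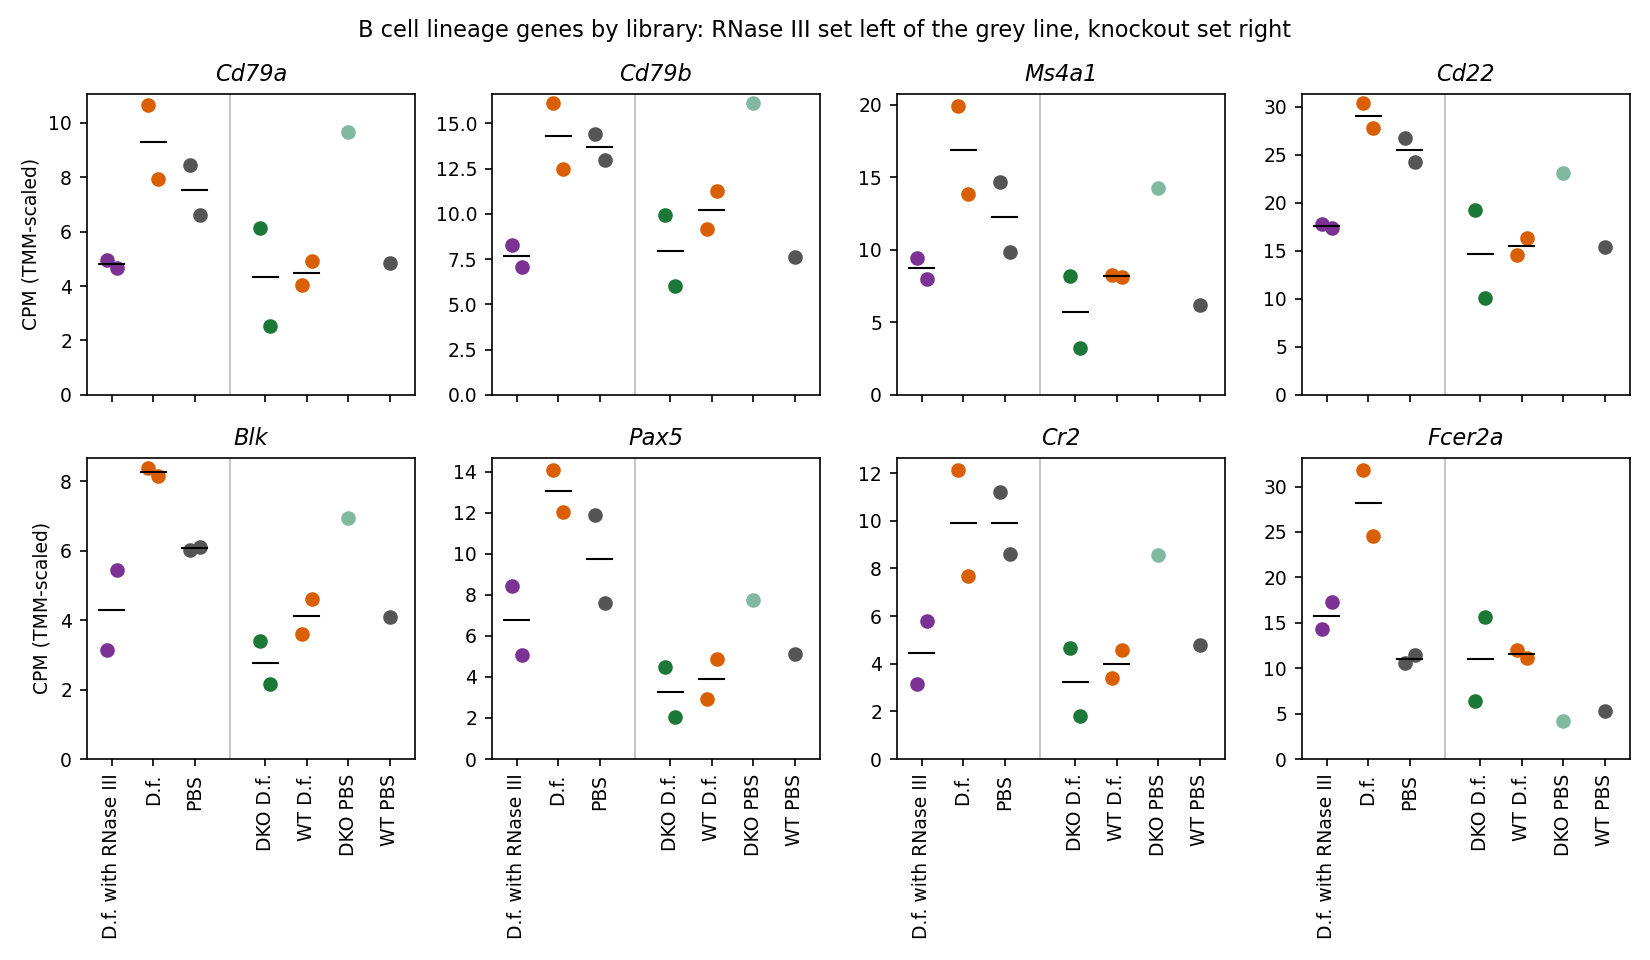
CPM of each B cell lineage gene (vertical axes, starting at 0) in every library, 1 point per library, with a bar at the mean of groups of 2 libraries. Fcer2a stands at 24.6 and 31.8 CPM with D.f. and 10.6 and 11.4 CPM with PBS in the RNase III set, while the other 7 genes are lower in both libraries with RNase III than in both with D.f. alone and, in the knockout set, highest in the DKO PBS library.

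With D.f. extract alone, 1 of the 8 genes was called as changed. Fcer2a rose, and the 7 other genes did not pass the test. Fcer2a had 31.8 and 24.6 CPM in D.f. lungs, against 10.6 and 11.4 CPM in PBS lungs. Both D.f. libraries lay above both PBS libraries, and the rise was 2.56-fold (log2 fold change 1.36 ± 0.18 SE; quasi-likelihood test of edgeR, Benjamini-Hochberg adjusted p = 0.00487). Over all 17165 genes tested, 11% were called and 6.51% rose. Cd79a, the signalling chain, had 10.7 and 7.93 CPM with D.f., against 8.46 and 6.61 CPM with PBS. Its partner Cd79b had 16.1 and 12.5 CPM with D.f., against 14.4 and 13.0 CPM with PBS. Both pairs of groups overlapped. Ms4a1 had 19.9 and 13.9 CPM with D.f., against 14.6 and 9.87 CPM with PBS, which also overlapped. Cr2, the other receptor of mature B cells in the list, had 12.1 and 7.67 CPM with D.f. and 11.2 and 8.60 CPM with PBS, a log2 fold change of 0.00 with a 95% interval of -0.79 to 0.79. Cd22 had 30.4 and 27.8 CPM with D.f. and 26.8 and 24.3 CPM with PBS. Pax5, the lineage factor, had 14.1 and 12.03 CPM with D.f. and 11.9 and 7.60 CPM with PBS. Blk had 8.37 and 8.15 CPM with D.f. and 6.02 and 6.11 CPM with PBS. In these genes both D.f. libraries were above both PBS libraries, by less than the test required. The log2 fold changes of the 7 genes ran from 0.00 for Cr2 to 0.47 for Ms4a1, with adjusted p of 0.308 to 0.998 by the same test. Libraries did not overlap between groups for 4 of the 8 genes, Fcer2a, Pax5, Blk and Cd22, each higher with D.f., and 25.6% of all genes did so. The median log2 fold change of the 8 genes was 0.37 and that of all genes -0.01.

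The wild-type comparison was repeated in the knockout set and over both sets. Fcer2a had 11.99 and 11.2 CPM in WT D.f. lungs, against 5.29 CPM in the single WT PBS lung, a log2 fold change of 1.13 ± 0.54 that did not pass the test in that set alone (edgeR, adjusted p = 0.359). With all libraries fitted it was not called, but it was without DKO D.f. replicate 5 or without replicate 6, libraries that share the estimate of the spread. Of the 8 genes, 0 were called there, and 1.52% of 15294 genes were. By edgeR 0 had an unadjusted p under 0.05, and DESeq2 called 0. The other 7 genes ran from -0.41 for Pax5 to 0.42 for Cd79b on the log2 scale. In a fit of the 7 wild-type libraries given PBS or D.f., adjusted for the set they came from, Fcer2a rose 2.38-fold (log2 1.25 ± 0.14, edgeR adjusted p = 0.000842) and was the 1 member called, where 14.7% of 15481 genes were called and 8.53% rose. There the other 7 ran from -0.12 for Cr2 to 0.42 for Ms4a1, with adjusted p of 0.178 to 0.839 by the same test. That fit contains the libraries of the first comparison and is no independent repeat of it. The call of Fcer2a in both of these fits remained with each library left out in turn, with adjusted p of up to 0.0384 in the RNase III set and 0.00457 over both sets.

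The other genes of B cell biology were counted by list, each list containing genes that other cells also use. Of 21 tested genes of B cell receptor signalling, 7 rose with D.f. in the RNase III set and none fell, where 6.51% of all genes rose. They include Ptpn6, the phosphatase SHP-1 that Cd22 recruits (log2 1.03 ± 0.13), the adaptor Pik3ap1 (1.19 ± 0.15), the kinase subunit Pik3cd (0.93 ± 0.17) and Cd72, an inhibitory receptor (1.30 ± 0.24). Ptpn6, Pik3ap1 and Pik3cd are also used in myeloid and T cells. Of 16 transcription factors used in B cells 6 rose, led by Sfpi1, which encodes PU.1 (1.11 ± 0.15), Irf8 (0.81 ± 0.12), Ikzf1 (0.86 ± 0.15) and Rel (0.95 ± 0.17), all shared with other leukocytes. Of 22 genes of homing, survival and help 10 rose, including the interleukin 21 receptor Il21r (1.75 ± 0.18), the activation marker Cd69 (2.64 ± 0.28) and the costimulatory ligand Cd86 (1.74 ± 0.23). Markers of other lymphocytes also moved. T cell markers rose for 3 of 15 genes and NK cell markers for 6 of 9, and Ptprc, the leukocyte antigen CD45, had 338 and 382 CPM with D.f., against 174 and 139 CPM with PBS (log2 1.21 ± 0.15, adjusted p = 0.00351). Cxcl13, the chemokine that draws B cells through Cxcr5, had 15.8 and 27.4 CPM with D.f., against 1.38 and 1.95 CPM with PBS (3.68 ± 0.38, adjusted p = 0.00171). The median log2 fold changes of the 3 B cell lists were 0.48, 0.52 and 0.71, beside -0.01 for all genes.

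When the extract had been given with RNase III, all 8 genes were lower than with the extract alone, and 3 of them, Cd22, Fcer2a and Cd79b, passed the test. Cd22 had 17.9 and 17.3 CPM with D.f. and RNase III, against 30.4 and 27.8 CPM with D.f. (log2 -0.73 ± 0.13, edgeR adjusted p = 0.0201). Fcer2a had 14.3 and 17.3 CPM with D.f. and RNase III, against 31.8 and 24.6 CPM with D.f. (-0.84 ± 0.18, adjusted p = 0.0366). Cd79b had 8.26 and 7.06 CPM with D.f. and RNase III, against 16.1 and 12.5 CPM with D.f. (-0.90 ± 0.20, adjusted p = 0.0374). Of all genes, 7.26% were called and 4.85% fell. The other 5 had folds of like size that missed the threshold. Cd79a had 4.96 and 4.65 CPM, against 10.7 and 7.93 CPM with D.f. alone (-0.95 ± 0.24, adjusted p = 0.0596). Ms4a1 had 9.42 and 8.03 CPM, against 19.9 and 13.9 CPM with D.f. alone (-0.95 ± 0.26, adjusted p = 0.077). Both signalling chains and CD20 thus had values of like size. The kinase gene Blk had 3.14 and 5.46 CPM, against 8.37 and 8.15 CPM with D.f. alone. Pax5 had 8.43 and 5.08 CPM, against 14.1 and 12.03 CPM with D.f. alone. Cr2 had 3.14 and 5.78 CPM, against 12.1 and 7.67 CPM with D.f. alone. The log2 fold changes of these genes ran from -0.94 for Blk to -1.15 for Cr2 with adjusted p of 0.0977 to 0.12 by the same test. No library with RNase III overlapped a D.f. library for any of the 8 genes, which held for 30.7% of all genes in this direction. The median log2 fold change of the 8 was -0.95, beside -0.00 for all genes. The number of members called depended on single libraries. None was called when any 1 of the D.f. replicates 3 and 4 or of the RNase III replicates 5 and 6 was left out, and 8 were called when PBS replicate 1 or PBS replicate 2 was left out. One fit over all 12 libraries called 1, a fit without the low-count filter 6 and DESeq2 7.

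**Figure D2:**
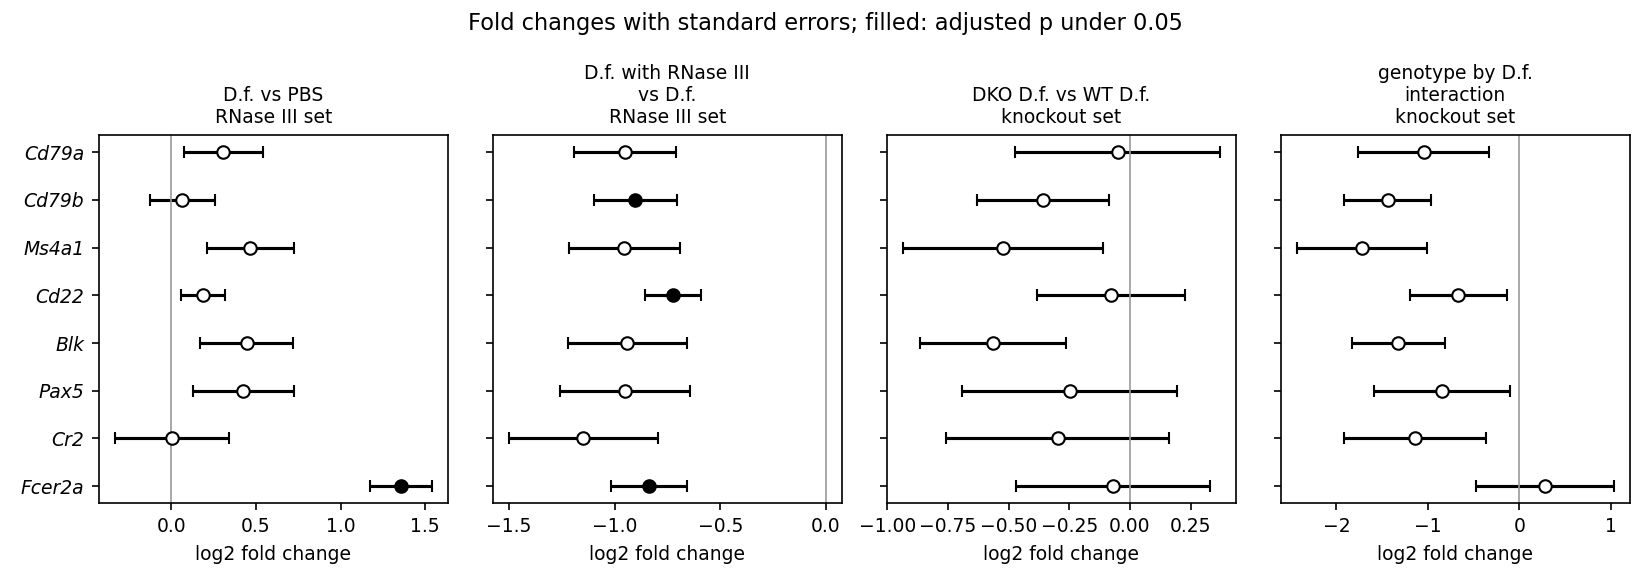
Log2 fold change (horizontal axes, each with its own scale) with its standard error for each B cell lineage gene in 4 comparisons, with filled points where the adjusted p is under 0.05. Fcer2a alone is filled for D.f. against PBS at 1.36, all 8 genes lie between -1.15 and -0.73 for the enzyme-treated extract against the extract alone, and no point is filled in the 2 comparisons of the knockout set.

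Set against PBS, the lungs with D.f. and RNase III had lower values of most of the B cell genes but 0 of the 8 were called by edgeR, and 0.00583% of all genes were. At an unadjusted p under 0.05 there were 5 of the 8, and DESeq2 called 50 genes of all. Fcer2a was higher, at 14.3 and 17.3 CPM against 10.6 and 11.4 CPM in PBS lungs (log2 0.52 ± 0.19, edgeR adjusted p = 0.96), without overlap, which held for 16.4% of all genes in this direction. The other 7 had negative fold changes, from -0.49 for Ms4a1 to -1.15 for Cr2, with adjusted p of 0.897 to 0.96 by the same test. For 6 of these 7 the groups did not overlap, Pax5 being the exception, and 16.5% of all genes lay below in this way. The comparison shares the PBS libraries with that of D.f. alone and the RNase III libraries with the one before it.

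The wider B cell lists were also counted for RNase III, where 4.85% of all genes fell. Of 21 receptor signalling genes 10 fell and none rose, among them Ptpn6 (-1.17 ± 0.13), Pik3ap1 (-1.25 ± 0.15), Cd72 (-1.73 ± 0.25) and Pik3cd (-1.11 ± 0.17). Of 16 transcription factors 7 fell, with Sfpi1 at -1.18 ± 0.15, Irf8 at -0.93 ± 0.12, Ikzf3, the lymphoid factor Aiolos, at -1.07 ± 0.14 and Ikzf1 at -1.05 ± 0.15. Of 22 homing, survival and help genes 9 fell, with Il21r at -1.82 ± 0.18, Cd69 at -2.62 ± 0.28 and lymphotoxin beta, Ltb, at -1.30 ± 0.18. Among 14 tested genes of antibody secretion 3 fell. One was Ighm, the constant region of IgM, which had 37.1 and 38.5 CPM with D.f. and RNase III, against 107 and 83.5 CPM with D.f. (-1.33 ± 0.15, adjusted p = 0.00317). Slamf7, a receptor of plasma and NK cells (-1.88 ± 0.26), and Pigr, the epithelial transporter of IgA (-0.98 ± 0.23), were the others. Igkc, the kappa constant region, had 8.76 and 8.99 CPM, against 28.9 and 15.3 CPM with D.f. alone (-1.32 ± 0.32, adjusted p = 0.0512). Ighm and Igkc have no values in the knockout set, so neither could be compared there. Cxcl13 fell to 3.86 and 6.10 CPM, against 15.8 and 27.4 CPM with D.f. (-2.11 ± 0.34, adjusted p = 0.0128). T cell markers fell for 8 of 15 genes, NK cell markers for 7 of 9 and general leukocyte genes for 4 of 4, with summed NK marker levels of 30.8 and 29.1 CPM with RNase III and 101 and 89.6 CPM with D.f. alone. Their part in the values of the B cell genes was not tested. Cardiac markers had summed levels of 244 and 221 CPM with RNase III and 523 and 1076 CPM with D.f., and adipose markers 11.1 and 5.99 CPM and 42.9 and 68.3 CPM. Their part was not tested either.

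In the knockout set, DKO lungs with D.f. gave no call against WT lungs with D.f. for any of the 8 genes, at a threshold that 2.53% of all genes passed. By edgeR 0 of the 8 had an unadjusted p under 0.05, and DESeq2 called 0. All 8 fold changes were negative, from -0.05 for Cd79a to -0.56 for Blk, with a median of -0.27 beside 0.01 for all genes, and the 2 DKO libraries stood apart from each other. Cd79a had 6.11 and 2.55 CPM in DKO D.f. replicates 5 and 6, against 4.04 and 4.92 CPM in WT D.f. lungs. Ms4a1 had 8.19 and 3.25 CPM in DKO D.f. lungs, against 8.29 and 8.10 CPM in WT D.f. lungs. Cd22 had 19.2 and 10.1 CPM in DKO D.f. lungs, against 14.6 and 16.4 CPM in WT D.f. lungs. The groups overlapped for these genes and for all others but Blk, which was lower in both DKO libraries, as were 25.6% of all genes. Other than Fcer2a, the 7 genes were 1.58-fold (Blk) to 2.6-fold (Cr2) higher in DKO replicate 5 than in replicate 6. Fcer2a ran the other way, at 6.43 CPM in replicate 5 and 15.6 CPM in replicate 6, with 11.99 and 11.2 CPM in WT D.f. lungs between them. The 95% intervals of the log2 fold changes were wide, from -1.07 to 0.94 for Fcer2a, -0.84 to 0.69 for Cd22 and -1.11 to 1.00 for Cd79a. Leaving out DKO replicate 5 gave 7 called members in this comparison and leaving out replicate 6 gave 1. DKO replicate 6 also had 713 CPM of Lyve1, a marker of lymphatic endothelium, against 142 to 260 CPM in the other 11 libraries. Summed over the 7 markers of lymphoid stroma and follicular dendritic cells, of which Lyve1 is 1, that library had 1017 CPM, against 247 to 486 CPM in the other 11. Ccl19 and Ccl21a were at 0 reads in all 12 libraries. From 36.8% to 44.6% of the entries of each file had no unique alignment and were not assigned to genes. Whether reads of Ccl19 and Ccl21a are among them was not tested, so 0 reads does not show that these genes were silent. Cr2 was at its lowest level, 1.80 CPM, in DKO replicate 6. Fcer2a and Cr2 are also made by follicular dendritic cells, and the part of these markers in the values was not tested.

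Between DKO and WT lungs with D.f., where 2.53% of all genes were called, the wider B cell lists were counted in the same way. Of 21 receptor signalling genes none was called by edgeR, and 6 had an unadjusted p under 0.05. Of 16 transcription factors 1 fell, Irf8 (log2 -1.02 ± 0.16), which plasmacytoid dendritic cells also use. Of 22 homing, survival and help genes 2 fell, Il21r (-1.29 ± 0.18) and Cd69 (-2.16 ± 0.31). Cxcl13 had 4.36 and 6.25 CPM in DKO D.f. lungs, against 13.7 and 14.0 CPM in WT D.f. lungs (-1.38 ± 0.22, edgeR adjusted p = 0.0466). Among markers of other cells, 2 of 15 T cell genes fell, 0 of 9 NK cell genes, 4 of 8 plasmacytoid dendritic cell genes and 3 of 8 cardiac genes. Their part in the values of the B cell genes was not tested.

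Within the DKO genotype, 7 of the 8 genes were lower with D.f. than in the single PBS library, and Fcer2a was higher. Cd79b had 9.94 and 6.00 CPM in DKO D.f. lungs and 16.1 CPM in the DKO PBS lung (log2 -1.02 ± 0.32). Blk had 3.40 and 2.15 CPM in DKO D.f. lungs and 6.94 CPM in the DKO PBS lung (-1.32 ± 0.35). Fcer2a had 6.43 and 15.6 CPM in DKO D.f. lungs and 4.16 CPM in the DKO PBS lung (1.41 ± 0.56). None passed the test (edgeR, adjusted p = 0.819 for each of the 8), and 0% of all genes did. The D.f. libraries did not overlap the PBS library for any of the 8, with 7 below, as 32.3% of all genes were, and Fcer2a above, as 33.3% were. At an unadjusted p under 0.05 there were 5 members, Blk, Cd79b, Ms4a1, Cr2 and Fcer2a, and DESeq2 called 37 genes of all. Without DKO D.f. replicate 5, all 8 members were called, and without replicate 6 none was. The response of the DKO genotype minus that of WT, tested as an interaction, was negative for 7 genes, from -0.67 for Cd22 to -1.72 for Ms4a1, and 0.28 ± 0.75 for Fcer2a. The smallest adjusted p was 0.415, for Cd79b at -1.44 ± 0.47 (edgeR), with 0.00654% of all genes called. Cd79b and Blk had an unadjusted p under 0.05, and DESeq2 called 0 of the 8. Without DKO D.f. replicate 5 the interaction was called for 7 members and without replicate 6 for 2. The WT and DKO fold changes rest on 1 PBS library each, assumed to vary like the other groups. Those PBS libraries differed. Cd79a had 9.65 CPM in the DKO PBS library, against 4.84 CPM in the WT PBS library, and Ms4a1 had 14.3 CPM against 6.21 CPM. For the members other than Fcer2a the DKO PBS library was higher by 0.59 (Cd22 and Pax5) to 1.19 (Ms4a1) on the log2 scale, Fcer2a differed by -0.34, and the median of all genes was 0.02. This difference between single libraries was not tested, and genotype, animal and library cannot be told apart in it. Summed NK markers were 53.0 CPM in the DKO PBS library and 15.1 CPM in the WT PBS library, and summed cardiac markers 153 and 855 CPM.

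**Figure D3:**
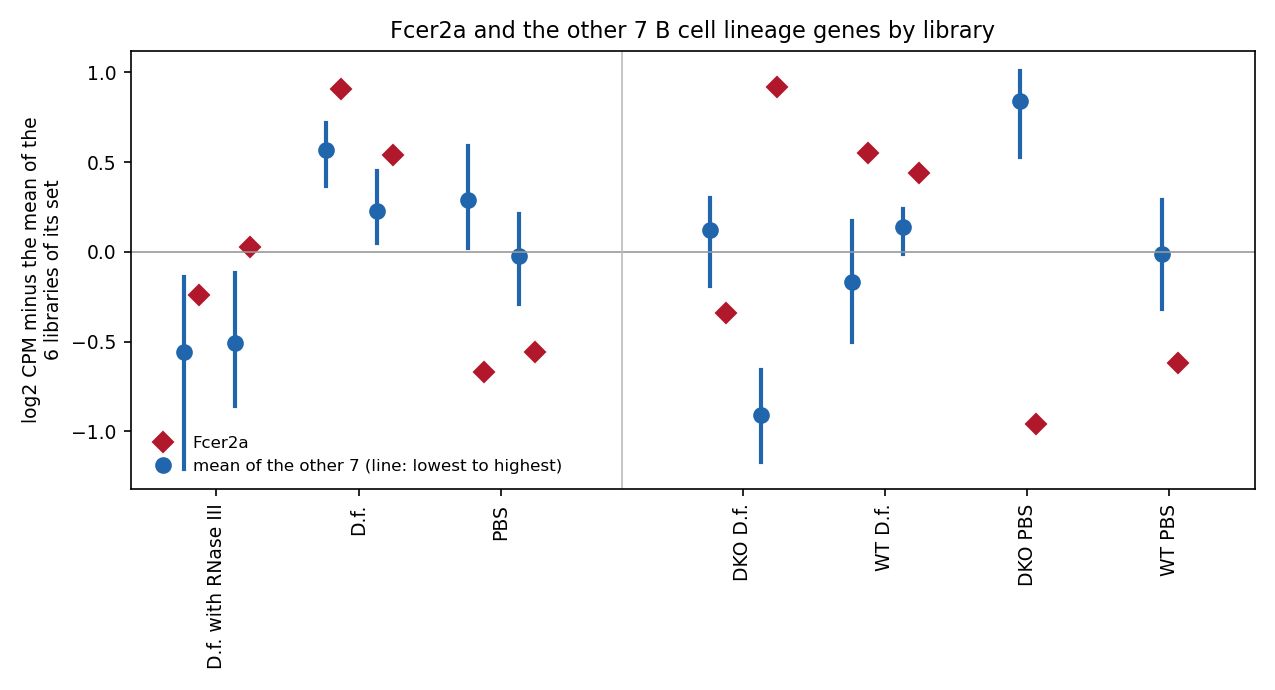
Log2 CPM minus the mean of the 6 libraries of the set, for Fcer2a (diamonds) and for the mean of the other 7 genes (circles, with lines from the lowest to the highest gene), 1 pair per library. Fcer2a lies below the line of the other genes in the 4 PBS libraries and in DKO D.f. replicate 5, and above their mean in the other 7 libraries with extract, by the most in DKO D.f. replicate 6 at 0.92 against -0.91.

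Fcer2a varied apart from the other B cell genes in the libraries of both sets. Counted against Cd79a in the same library, which removes library size, Fcer2a had 288 and 371 reads per 100 Cd79a reads with D.f. and RNase III and 298 and 310 with D.f., against 125 and 173 with PBS. In the knockout set it had 105 and 612 in DKO D.f. lungs, 296 and 227 in WT D.f. lungs, 43.1 in the DKO PBS lung and 109 in the WT PBS lung. Within each set and genotype every library with extract was above every PBS library, while over all 12 libraries the 8 with extract (105 to 612) overlapped the 4 with PBS (43.1 to 173) through DKO D.f. replicate 5. With RNase III and with D.f. alone the ratio overlapped, although both genes had fewer CPM with RNase III. Cr2 ran the other way within each set and genotype. It had 63.3 and 124 reads per 100 Cd79a reads with D.f. and RNase III and 114 and 96.7 with D.f., against 133 and 130 with PBS. In the knockout set Cr2 had 76.5 and 70.6 in DKO D.f. lungs and 84.1 and 92.7 in WT D.f. lungs, against 88.9 in the DKO PBS lung and 98.8 in the WT PBS lung. Cd79b was below PBS in the RNase III set, at 151 to 167 with extract and 171 and 197 with PBS, but above it in WT lungs of the knockout set, at 227 and 229 with D.f. and 158 with PBS. Cd22 had 285 to 396 reads per 100 Cd79a reads in the 8 libraries with extract and 240 to 368 in the 4 PBS libraries. These ratios are given as description without a test. The share of all genes whose ratio to Cd79a separates in this way was not counted. In CPM, 33.3% of all genes lay above the single DKO PBS library in both DKO D.f. libraries, and 32.3% lay below.

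Counted against Ptprc, several of the B cell genes had fewer reads after extract than after PBS. Cd79a had 15.8 to 34.1 reads per 1000 Ptprc reads in the 8 libraries with extract, against 39.7 to 49.1 in the 4 PBS libraries, and the ranges did not overlap. Cd22 had 57.0 to 112, against 118 to 175, also without overlap. Cd79b had 32.8 to 55.4, against 62.6 to 93.7, and Cr2 11.6 to 37.5, against 39.3 to 64.7, both without overlap. Fcer2a had 35.9 to 112, against 21.2 to 82.2, and overlapped. Ms4a1 had 21 to 59, against 51 to 84.4, and Pax5 11.4 to 52.2, against 39.4 to 68.5. The ranges of Ms4a1 and Pax5 overlapped only when the sets were pooled. Within each set and genotype every library with extract was below every PBS library for these genes. Blk had 13.9 to 35.4, against 33.7 to 44.1, and overlapped, also within the RNase III set. The share of all genes that separate in this ratio was not counted, so the separation is not shown to be particular to these genes. A gene of unchanged CPM has a lower ratio wherever Ptprc is higher. Ptprc itself was higher with D.f. in wild-type lungs, as given above, but had 162 and 154 CPM with D.f. and RNase III, beside the 174 and 139 CPM of PBS lungs. In DKO D.f. lungs it had 179 and 154 CPM, against 197 CPM in the DKO PBS lung.

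**Figure D4:**
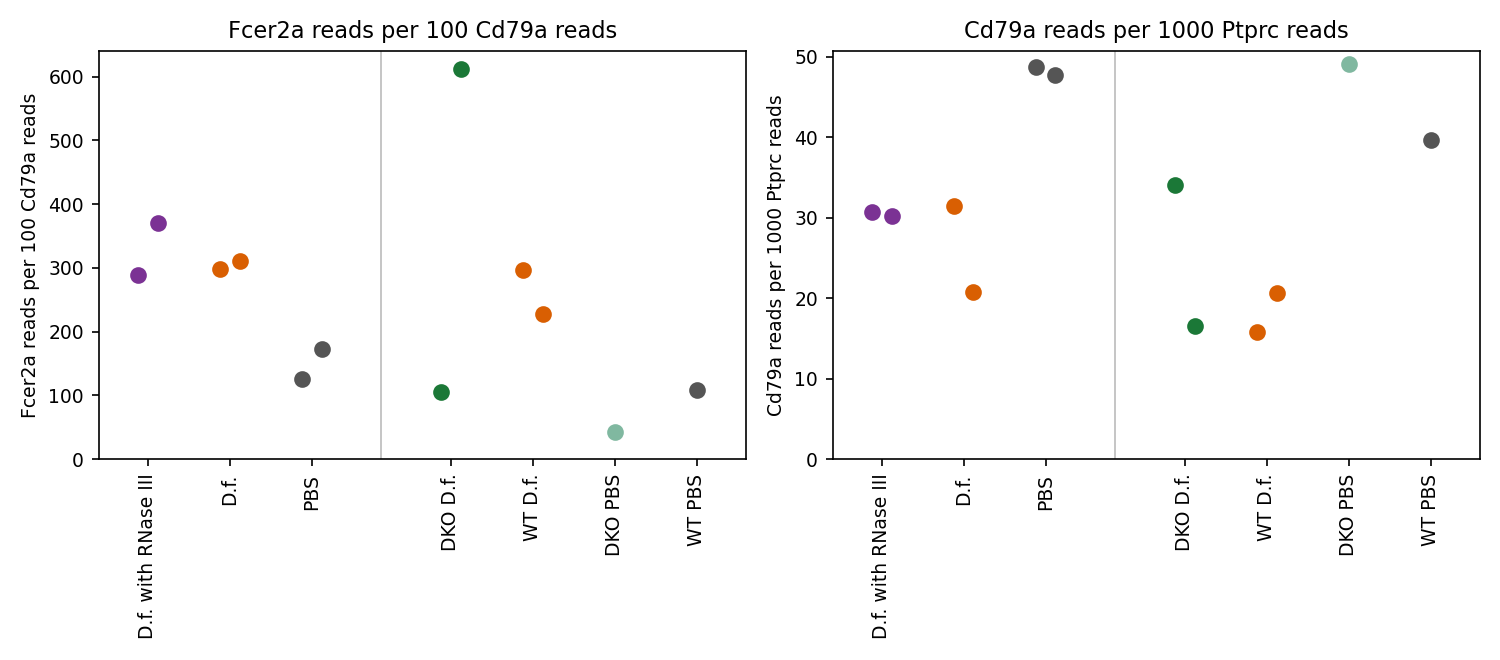
Reads of Fcer2a per 100 reads of Cd79a (left) and reads of Cd79a per 1000 reads of Ptprc (right) in every library, 1 point per library, axes starting at 0. The left ratio is 288 to 371 in the RNase III set with extract and 125 to 173 with PBS, and the right ratio is at most 34.1 with extract and at least 39.7 with PBS.

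The genes with profiles most like the mean of the 8 were found over the 12 libraries by the root mean square difference of log2 CPM centred within each set. Among the 10 nearest, at differences of 0.121 to 0.189, were Bank1, Cxcr5, Cd37, Arhgap4, Btla, Spn, Ikzf3, Cacna1i and Traf3ip3, where the median of 11979 genes was 0.438 and a flat profile had 0.393. Bank1 is a B cell scaffold protein, Cxcr5 the receptor for Cxcl13, and Cd37 a tetraspanin of B cells. The other genes named were not sorted by cell type, so the profile is not shown to be particular to B cells. Among the members themselves Cd22 was nearest to the mean at 0.119, then Cd79b at 0.151 and Cd79a at 0.168, and Cr2 was at 0.334. Fcer2a was farthest at 0.782, farther than the flat profile and than the median gene. The 7 genes without Fcer2a averaged 0.12 and -0.91 in DKO D.f. replicates 5 and 6 and 0.84 in the DKO PBS library, in log2 units from the mean of their set. Of other genes of the Ms4a family, Ms4a4b, expressed in T cells, and Ms4a6b, chosen after their values were seen, rose with D.f. in the RNase III set by 1.41 ± 0.27 and 2.28 ± 0.25 on the log2 scale (edgeR adjusted p = 0.0189 and 0.00197), beside 0.47 ± 0.26 for Ms4a1.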

How the data were processed

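Total RNA of mouse lung was sequenced as single-end reads of 100 bases. Per the submitters' processing notes and the series' design text, reads were aligned to mm9 with TopHat2 2.0.8b and counted with HTSeq. The deposited values are raw counts of reads per gene, not normalized by the authors. The sources used here give neither the annotation nor the strand setting of the counting. From 23.1% to 28.2% of the entries of each file were assigned to genes, and the summary lines of the counter were left out. The 2 sets of tables list different genes and were fitted apart.

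Genes were filtered with filterByExpr, scaled by TMM and tested with the quasi-likelihood test of edgeR 4.0.16 in R 4.3.3, with Benjamini-Hochberg adjustment over all genes tested and a threshold of 0.05. Residual degrees of freedom were 3 (RNase III set), 2 (knockout set) and 4 (wild-type libraries of both). DESeq2 1.42.0, RLE scaling, no filter, 1 fit of all 12 libraries and leaving out each library were alternatives, and the scripts were tested on simulated data. Replicate libraries differed beyond sampling noise (chi-square per degree of freedom 7.33 to 46.6). Exon lengths are from GENCODE vM1. The members and lists were chosen with earlier results of these data known. Named genes are the members, up to 4 genes of smallest p per list described, Ptprc, Tlr3, Mavs and the 10 nearest profiles, some of which are not reported here, and others are said to have been chosen after their values were seen.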

Additional observations from a re-analysis of the deposited data

How the results depend on the processing

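The rise of Fcer2a with D.f. was called in every alternative run for the RNase III set and for the wild-type libraries of both sets. The number of B cell genes called for RNase III with D.f. against D.f., 3, was 6 without the low-count filter, 7 with DESeq2, 1 in the fit over 12 libraries and 0 to 8 with single libraries left out. Leaving out single libraries gave 0 to 1 called for WT D.f. against WT PBS, 0 to 8 for DKO D.f. against DKO PBS, 0 to 7 for DKO D.f. against WT D.f. and 0 to 7 for the interaction. Over all genes, DESeq2 called 1893 for RNase III with D.f. against D.f. (1246 by edgeR), 50 for RNase III with D.f. against PBS (1), 649 for WT D.f. against WT PBS (232), 37 for DKO D.f. against DKO PBS (0), 732 for DKO D.f. against WT D.f. (387) and 212 for the interaction (1). Without the filter these were 10 for RNase III with D.f. against PBS, 391 for WT D.f. against WT PBS and 16 for the interaction, and the fit over 12 libraries gave 391 and 7 for the last pair. With single libraries left out, calls over all genes ran from 584 to 3071 for D.f. against PBS, 0 to 188 and 146 to 2874 for RNase III with D.f. against PBS and against D.f., 0 to 3150 for WT D.f. against WT PBS, 0 to 2092 for DKO D.f. against DKO PBS, 7 to 3048 for DKO D.f. against WT D.f., 0 to 1666 for the interaction and 1080 to 2428 over both sets. Fewer samples are fitted in these, and a lone library is assumed to vary like the others. For the other alternatives the cause was not tested. No paired analysis was possible because the groups compared share no replicate numbers within a set.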

Other observations

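Gcet2, a gene of germinal centre B cells, fell with D.f. in the RNase III set, at 0.476 and 0.261 CPM with D.f., against 1.33 and 1.67 CPM with PBS (log2 -2.001 ± 0.42, edgeR adjusted p = 0.0255). With D.f. and RNase III it had 1.93 and 1.71 CPM, higher than with D.f. (log2 2.27 ± 0.42, edgeR adjusted p = 0.0201). In the knockout set it had 1.38 and 1.30 CPM in DKO D.f. lungs, 0.740 and 0.480 CPM in WT D.f. lungs, 1.07 CPM in the DKO PBS lung and 2.33 CPM in the WT PBS lung. These rest on 6 to 41 reads per library.

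Rag1, which recombines antigen receptor genes in lymphocyte precursors and was chosen after its values were seen, had 81 reads in D.f. with RNase III replicate 5 and at most 12 in the other 11 libraries. It had 1 and 1 reads in DKO D.f. lungs and 12 and 11 in WT D.f. lungs (log2 -3.43 ± 0.70, edgeR adjusted p = 0.0826). Over the wild-type libraries of both sets it rose with D.f. (log2 3.43 ± 0.84, edgeR adjusted p = 0.0311), on 1 to 12 reads per D.f. library and 0 or 1 per PBS library, so the fitted size depends on the prior count. Dntt, which adds bases at the joins, had 17 reads in that library and at most 8 in the others.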
